A study of Mus musculus with 10 samples.

Results

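The genes described here make, break down and move the monoamine transmitters, chiefly dopamine, in the shell of the nucleus accumbens. They were taken by symbol from a list of 6 (Ddc, Th, Maoa, Maob, Slc18a2 and Slc6a3), of which 5 were measured among the 20483 genes of the table. Slc6a3, the gene of the plasma membrane dopamine transporter, is not analysed here. All 5 passed the filter on low values, at least 1 TPM in at least 5 of the 10 libraries, which left 15596 genes for testing. TPM is a transcript level scaled by gene length and to the same total of 1000000 in every library, which puts genes on a common scale. Differences between genes in amplification or counting were not tested.

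The nucleus accumbens (NAc) is the ventral striatum, and its lateral and medial shell gave 5 libraries each from wild-type mice with no treatment named. The question behind the series is how the shell regions differ in handling reward. Tissue was collected as total RNA by Geo-seq, in which laser-cut pieces of a section are amplified from a low input, so each library is a mixture of cells, although the labels name a mouse neural cell. The labels call the libraries biological replicates without tying them to animals and give no age or strain, so a p-value here measures the spread between libraries, which may be partly technical. In such mixtures fewer cells of a type and less RNA per cell cannot be told apart.

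As background, tyrosine hydroxylase (Th) turns tyrosine into L-DOPA, and aromatic L-amino acid decarboxylase (Ddc) turns L-DOPA into dopamine and 5-hydroxytryptophan into serotonin. The vesicular monoamine transporter VMAT2 (Slc18a2) loads monoamines into vesicles, and the mitochondrial monoamine oxidases A and B (Maoa, Maob) degrade them. The accumbens is densely supplied by axons of midbrain dopamine neurons, whose cell bodies, and most of whose messenger RNA, lie outside it. Transcripts of these genes in accumbens tissue can therefore also come from local cells. The striatum is known to hold small populations of cells that carry tyrosine hydroxylase and others that carry the decarboxylase without it.

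All 5 genes lie on the reference build GRCm38 as annotated in GENCODE M21. Ddc (ENSMUSG00000020182.16) spans chr11:11814101-11898144 on the minus strand, with Fignl1 and the imprinted gene Grb10 as its protein-coding neighbours. Th (ENSMUSG00000000214.11) spans chr7:142892752-142931128 on the minus strand, and Slc18a2 (ENSMUSG00000025094.8) spans chr19:59260896-59296012 on the plus strand. Maoa (ENSMUSG00000025037.6, chrX:16619698-16687818, plus strand) and Maob (ENSMUSG00000040147.14, chrX:16709282-16817366, minus strand) are paralogs that lie tail to tail, 21.5 kb apart. An antisense gene overlaps Ddc (1700042O10Rik) and another overlaps the start of Slc18a2 (Gm29261). Whether counting used strand is not stated in the sources used here, so reads of each pair may not have been told apart.

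RefSeq promoter sequences on GRCm38.p6 were matched for 4 of the 5 genes. Ddc has 2 start sites in that table, 7.74 kb apart, and the 250 bases before each are shown because Ddc is the gene whose level differed between the regions. The TPM table gives 1 value per gene, so it does not say which start was used. The windows are given 5′ to 3′ on the gene's strand and lie at chr11:11898145-11898394 for the upstream start and at chr11:11890409-11890658 for the downstream start.
Ddc upstream start: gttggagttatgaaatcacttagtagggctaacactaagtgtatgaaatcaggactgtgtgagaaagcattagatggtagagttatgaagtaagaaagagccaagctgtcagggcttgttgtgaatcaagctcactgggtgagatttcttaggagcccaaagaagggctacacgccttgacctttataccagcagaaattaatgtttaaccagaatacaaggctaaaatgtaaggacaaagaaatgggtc
Ddc downstream start: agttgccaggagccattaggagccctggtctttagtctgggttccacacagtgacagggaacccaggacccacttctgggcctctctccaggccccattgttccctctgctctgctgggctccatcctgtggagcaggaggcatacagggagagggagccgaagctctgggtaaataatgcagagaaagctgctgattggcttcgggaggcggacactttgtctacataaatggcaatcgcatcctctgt
The palindrome TGACGTCA, the full cAMP response element, which reads the same on both strands, was searched in the table's windows of 300 bases, from 250 before to 50 after a start. It occurred in 588 of 32851 windows (1.79%) and in 2 of the 5 windows of these genes, those of Th and Slc18a2. The 28 bases around each match are shown with the palindrome in capitals, at chr7:142900023-142900050 on the minus strand for Th and at chr19:59260864-59260891 on the plus strand for Slc18a2. The match begins 45 bases before the RefSeq start of Th and 4 bases before that of Slc18a2.
Th: agaggggcttTGACGTCAgcctggcctt
Slc18a2: gcgctgtccgTGACGTCAgagccggact
Neither Ddc window nor that of Maoa held these letters.

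Ddc was the only gene of the 5 to pass the test between the regions, and it was higher in the medial shell. Its level was 10.7, 33.2, 20.0, 22.3 and 25.7 TPM in medial replicates 1 to 5 and 1.09, 5.00, 4.36, 6.84 and 3.17 TPM in lateral replicates 1 to 5. The groups did not overlap, and the lowest medial library stood above the highest lateral one. The medial mean of 22.4 ± 8.21 TPM (SD, n = 5) was 5.47-fold higher than the lateral mean of 4.09 ± 2.14 TPM (SD, n = 5). Folds are given as the log2 fold change of TPM + 1, lateral minus medial, which for Ddc came to -2.24 (standard error 0.38, 95% interval -3.07 to -1.42, limma adjusted p = 0.013 over all genes tested). Among the 15596 tested genes this was the 58th smallest p. The Ddc mean lay above 28.2% of tested genes in the lateral and above 73.7% in the medial libraries.

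Over all genes tested, 1.48% passed in either direction, 1.1% with medial higher, and 4.25% had groups that did not overlap (3.39% with medial and 0.859% with lateral higher). Against that background, 1 of the 5 monoamine genes passed, and 1 had groups that did not overlap. Across all tested genes the median log2 fold change stood at -0.21. Median-ratio scaling and quantile normalization moved that median to -0.025 and -0.001, and under them Ddc stood at -2.05 and -1.97 and passed. Lateral replicate 5 and medial replicate 2 stand apart from the rest, with AY036118 near 0 (up to 1.42 TPM against at least 82500 TPM elsewhere). Without both libraries the Ddc log2 fold change was -2.04 and no longer passed (limma adjusted p = 0.101). The neighbouring gene Grb10, encoding a growth factor receptor adaptor, had a log2 fold change of -0.62 and did not pass (limma adjusted p = 0.291).

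**Figure D1:**
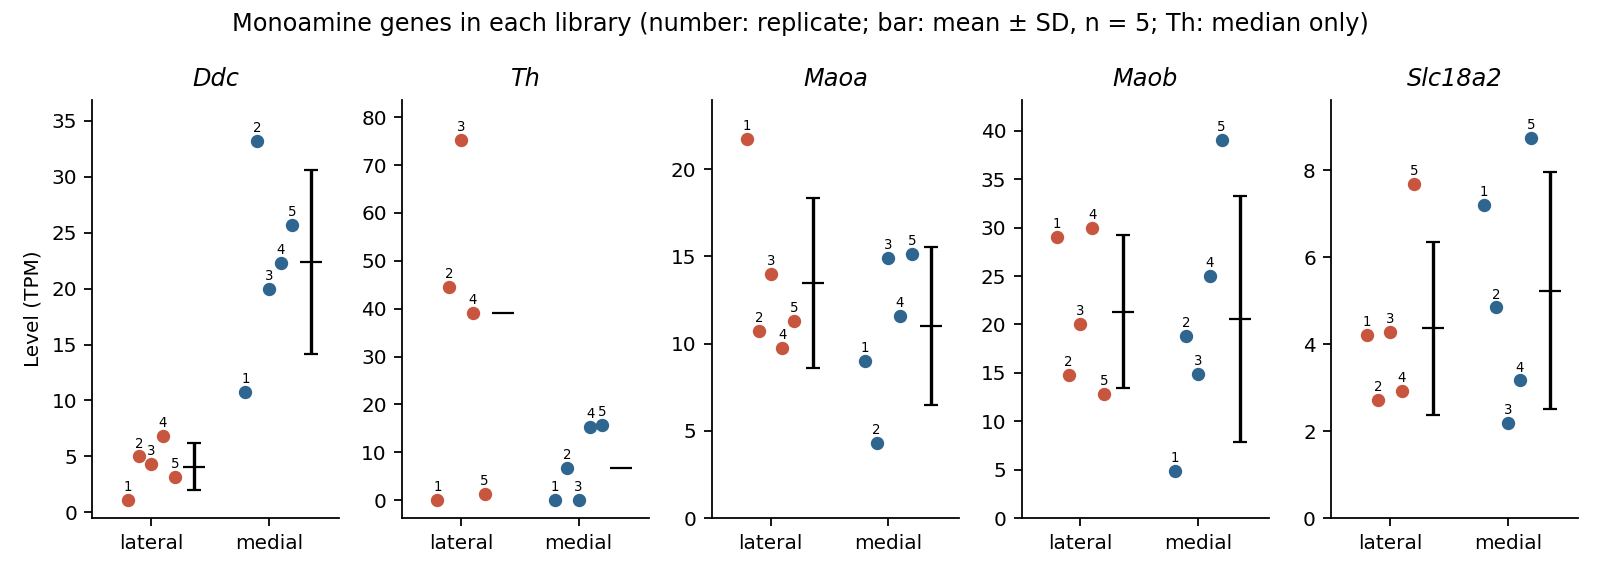
Level in TPM of each monoamine gene (vertical axis, linear, starting at or just below 0, with its own scale per gene) in the 5 lateral and 5 medial libraries, numbered by replicate, with the mean ± SD as a black bar, or the median alone for Th, which has libraries listed at 0. The medial Ddc points, at 10.7 to 33.2 TPM, all lie above the lateral ones at 1.09 to 6.84 TPM, while the points of the other 4 genes overlap.

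Th, the gene of the enzyme that precedes Ddc in dopamine synthesis, did not pass the test. It was at 0, 44.6, 75.2, 39.1 and 1.24 TPM in lateral replicates 1 to 5 and at 0, 6.75, 0, 15.3 and 15.6 TPM in medial replicates 1 to 5. The values split within both regions: lateral replicates 2, 3 and 4 held the 3 highest levels, and 3 libraries, lateral replicate 1 and medial replicates 1 and 3, were listed at 0. The lateral median was 39.1 TPM and the medial median 6.75 TPM. The log2 fold change was 1.44 with a 95% interval from -1.22 to 4.11 (limma adjusted p = 0.621), an interval that spans changes in either direction. Leaving out single libraries moved it between 0.79, without lateral replicate 3, and 2.35, without lateral replicate 1. In none of these 10 fits did Th pass (limma adjusted p of at least 0.37).

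The level of Th varied among libraries of like Ddc level. Medial replicates 4 and 5 had Th at 15.3 and 15.6 TPM with Ddc at 22.3 and 25.7 TPM. Medial replicate 3 had Ddc at 20.0 TPM with Th listed at 0, and medial replicate 1 had Ddc at 10.7 TPM, also with Th listed at 0. Lateral replicate 3, with the highest Th of the series at 75.2 TPM, had Ddc at 4.36 TPM. The log2 ratio of Th to Ddc within a library, which does not depend on the scaling between libraries except through the pseudocount, was -1.06, 2.93, 3.83, 2.35 and -0.90 in lateral replicates 1 to 5. In medial replicates 1 to 5 it was -3.55, -2.14, -4.39, -0.51 and -0.68. Every medial library thus had less Th than Ddc, against 2 of the lateral ones. The mean ratio differed by 3.69 log2 units between the regions, which did not pass (exact permutation test, two-sided, p = 0.0476, or 0.0952 adjusted over the 2 ratios tested). The smallest p that 5 libraries against 5 can give is 0.00794.

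**Figure D2:**
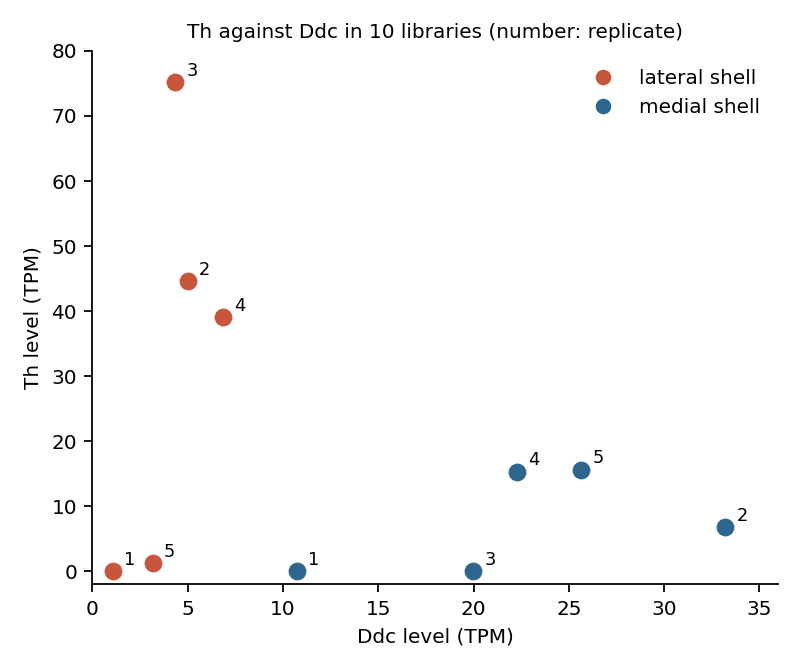
Th level against Ddc level, both in TPM on linear axes, in the 10 libraries, each labelled with its replicate number. The medial libraries spread along the Ddc axis with Th at 15.6 TPM or less, and 3 lateral libraries sit at 39.1 to 75.2 TPM of Th with Ddc at 6.84 TPM or less.

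Slc18a2, encoding VMAT2, was detected at a low level in every library. It stood at 4.22, 2.71, 4.29, 2.92 and 7.68 TPM in lateral and at 7.21, 4.85, 2.19, 3.17 and 8.75 TPM in medial replicates 1 to 5. The ranges overlapped almost wholly. The lateral mean was 4.36 ± 1.99 TPM (SD, n = 5) and the medial mean 5.23 ± 2.74 TPM (SD, n = 5), with a log2 fold change of -0.17 (95% interval -1.01 to 0.67, limma adjusted p = 0.874). Its sign turned under 2 of the 3 scaling alternatives, to 0.0057 under median-ratio scaling and 0.12 under quantile normalization, and stayed at -0.11 when TPM was rescaled without mitochondrial and haemoglobin genes, so no direction is given.

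The monoamine oxidase genes showed no detectable difference between the regions. Maoa, whose enzyme prefers serotonin and noradrenaline, was at 21.8, 10.7, 14.0, 9.75 and 11.3 TPM in lateral replicates 1 to 5 and at 8.99, 4.32, 14.9, 11.6 and 15.2 TPM in medial replicates 1 to 5. The highest library was lateral replicate 1 and the lowest medial replicate 2, and the rest were mixed. The lateral mean was 13.5 ± 4.88 TPM (SD, n = 5) and the medial mean 11.0 ± 4.52 TPM (SD, n = 5), with a log2 fold change of 0.32 (95% interval -0.40 to 1.05, limma adjusted p = 0.69). Without lateral replicate 1 it was 0.15, and without medial replicate 2 it was 0.056.

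Maob, whose enzyme is known from astrocytes and from serotonin and histamine neurons, was at 29.0, 14.8, 20.1, 30.0 and 12.8 TPM in lateral replicates 1 to 5. In medial replicates 1 to 5 it was at 4.88, 18.8, 14.9, 25.0 and 39.1 TPM. Both the lowest and the highest library of the series were medial, so the lateral range lay inside the medial one. The lateral mean was 21.3 ± 7.93 TPM (SD, n = 5) and the medial mean 20.5 ± 12.7 TPM (SD, n = 5), with a log2 fold change of 0.23 (95% interval -0.71 to 1.17, limma adjusted p = 0.845). Without medial replicate 1, the library at 4.88 TPM, the sign turned, at -0.18.

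Within a library Maob was above Maoa in all 5 lateral and in 3 of 5 medial libraries. The log2 ratio of Maoa to Maob was -0.40, -0.43, -0.49, -1.53 and -0.17 in lateral replicates 1 to 5 and 0.77, -1.90, 0.0017, -1.05 and -1.31 in medial replicates 1 to 5. The lateral mean of this ratio was -0.60 ± 0.53 (SD, n = 5) and the medial mean -0.70 ± 1.07 (SD, n = 5), a difference of 0.094 (exact permutation test, two-sided, p = 0.881, also 0.881 when adjusted over the 2 ratios tested). Its sign turned with libraries left out, for example to -0.21 without medial replicate 2. The medial libraries were the more scattered, on both sides of 0, while all lateral ratios were negative.

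By the median TPM, the order in the lateral shell was Th (39.1), Maob (20.1), Maoa (11.3), Ddc (4.36) and Slc18a2 (4.22). In the medial shell it was Ddc (22.3), Maob (18.8), Maoa (11.6), Th (6.75) and Slc18a2 (4.85). The places of Ddc and Th differed between the regions, and Maob stood above Maoa and Maoa above Slc18a2 in both. Of the neighbours in these orders, only Maoa and Ddc in the lateral shell had ranges that did not overlap. Th was above Maob in 3 of 5 lateral libraries, and Ddc above Maob in 3 of 5 medial ones.

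Other genes of the pathway were taken from lists for synthesis, breakdown and transport, and 18 of their 35 genes were tested. In synthesis, 6 of 15 listed genes were measured and 5 tested, and none passed limma's adjusted test or had an unadjusted p under 0.05 (0 of 5, against 15.4% of all tested genes; median log2 fold change 0.31, against -0.21 over all). These 5 belong to the supply of tetrahydrobiopterin, the cofactor that tyrosine hydroxylase needs. Pts, encoding 6-pyruvoyl-tetrahydropterin synthase, averaged 9.52 ± 4.77 TPM laterally and 15.0 ± 2.77 TPM medially (SD, n = 5 each; log2 fold change -0.74, limma adjusted p = 0.326). Pcbd2, which serves cofactor recycling, had a log2 fold change of -0.57 (limma adjusted p = 0.341) and Spr, encoding sepiapterin reductase, one of 0.31 (limma adjusted p = 0.651). The other 9 genes of that list, among them Tph2, Dbh and Gch1, are not analysed here.

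In breakdown, 10 of 11 listed genes were tested, 8 of them lower in lateral and 2 higher, and none passed (median log2 fold change -0.32). With limma's unadjusted p under 0.05 there were 5 of the 10, beside 15.4% of all tested genes. Over all tested genes 68.7% were lower in lateral. Under median-ratio scaling 7 of the 10 were lower in lateral and 3 higher, with the median of all tested genes at -0.025. The share of all genes lower under that scaling is not given here. Sult1a1, encoding a phenol sulfotransferase, ran from 0 to 5.20 TPM across the lateral and from 5.84 to 25.3 TPM across the medial libraries. Its groups did not overlap (beside 4.25% of all tested genes), and its log2 fold change of -2.16 missed the threshold (limma adjusted p = 0.0598). Sult1a1 passed without medial replicate 1 (0.0328), with array weights (0.0496) and with a pseudocount of 5 (0.0326). Aldh1a1, encoding an aldehyde dehydrogenase that midbrain dopamine neurons also carry, ran from 1.46 to 28.8 TPM across the lateral and from 0 to 6.28 TPM across the medial ones (log2 fold change 2.15, limma adjusted p = 0.159). Hnmt, which inactivates histamine, had a log2 fold change of -0.66 (limma adjusted p = 0.169).

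In transport, 3 of 9 listed genes were tested and 1 passed (1 of 3, beside 1.48% of all tested genes). The gene that passed was Slc18b1, a member of the VMAT family known as a vesicular polyamine transporter. Slc18b1 averaged 3.56 ± 1.61 TPM laterally and 12.8 ± 3.89 TPM medially (SD, n = 5 each). It ranged from 1.56 to 4.80 TPM against 9.10 to 19.2 TPM without overlap (beside 4.25% of all tested genes). The log2 fold change of -1.64 passed (95% interval -2.36 to -0.92, limma adjusted p = 0.0304). The call ended in 11 of 21 alternatives (adjusted p up to 0.1), among them median-ratio scaling (0.07), quantile normalization (0.1) and the fit without lateral replicate 5 and medial replicate 2 (0.0903). It also ended without lateral replicates 2 or 3 or any 1 of the medial replicates (0.0507 to 0.0684). Slc29a4, encoding the plasma membrane monoamine transporter, was at 0.28 to 6.76 TPM across the lateral and 0.26 to 6.22 TPM across the medial ones (log2 fold change 0.012, limma adjusted p = 0.996). Slc10a4, a vesicle protein of cholinergic and monoaminergic neurons, ran from 1.26 to 86.3 TPM and from 0 to 94.6 TPM (log2 fold change 0.32, limma adjusted p = 0.933).

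**Figure D3:**
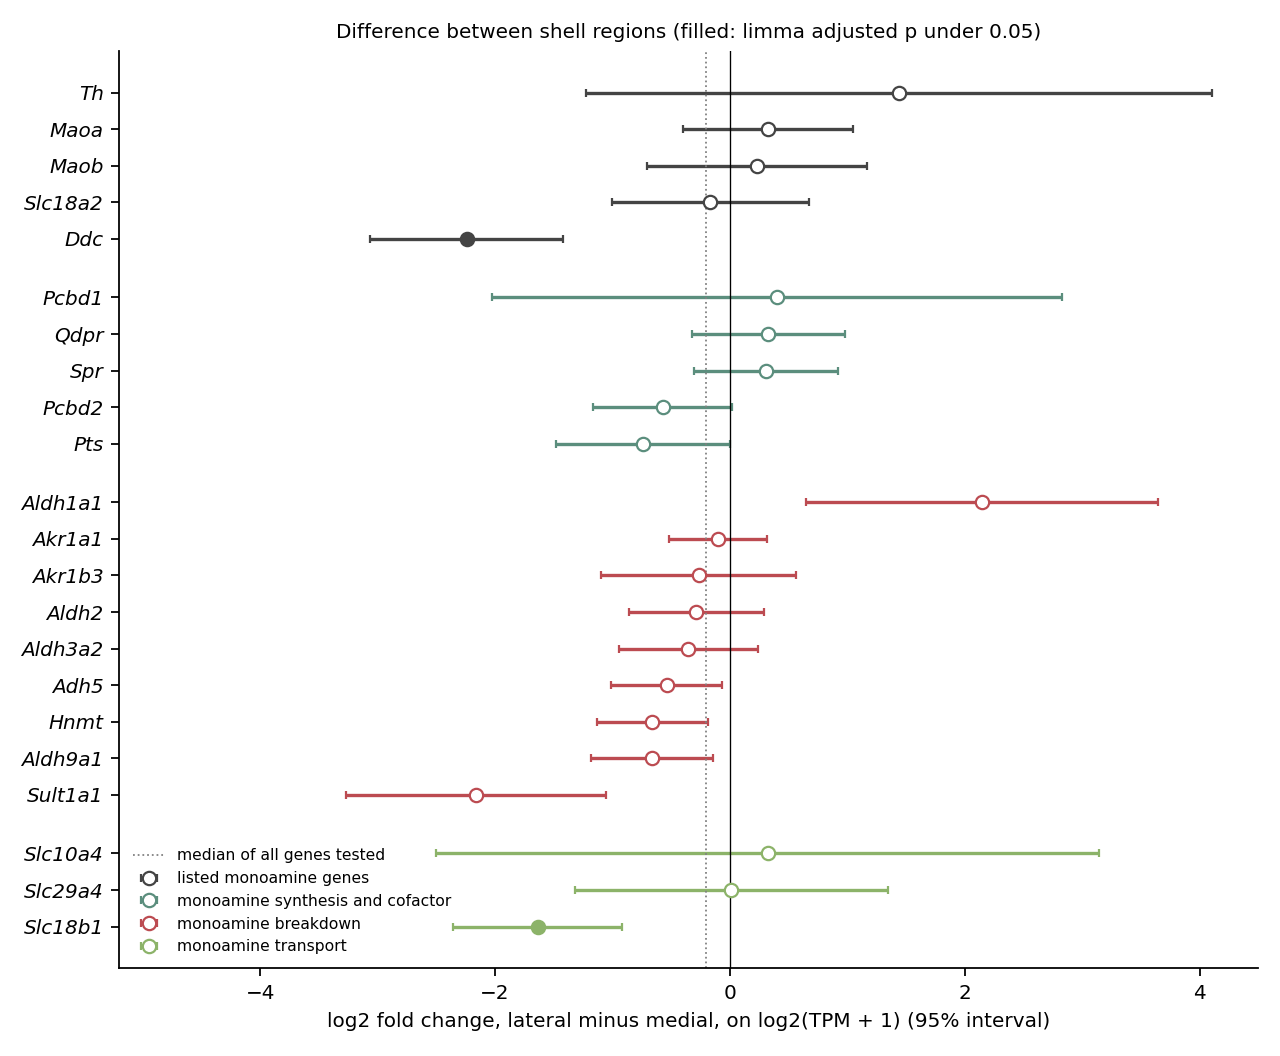
Log2 fold change, lateral minus medial on log2(TPM + 1), with its 95% interval for the 5 monoamine genes and for all but 1 of the tested genes of the synthesis, breakdown and transport lists, filled where the limma adjusted p was under 0.05. Ddc at -2.24 and Slc18b1 at -1.64 are the filled points, and the dotted line at -0.21 is the median of all tested genes.

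Markers of the cells that a piece of tissue could hold were set beside these values. All 16 striatal projection neuron genes were measured, with a summed level of 4439 to 6708 TPM in lateral and 4819 to 7286 TPM in medial libraries. Of them 9 were lower in lateral and 7 higher, beside 68.7% of all tested genes lower. An unadjusted limma p under 0.05 was found for 5 of the 16, beside 15.4% of all tested genes. The 1 that passed, beside 1.48% of all tested genes, was Gad2 (log2 fold change -0.90, limma adjusted p = 0.0133). Its call ended without lateral replicate 5 and medial replicate 2 (0.0697) and without a mean-variance trend (0.0649). Of 14 midbrain dopamine neuron genes 4 were measured, and their sum ran from 4.00 to 117 TPM in lateral and from 1.38 to 97.1 TPM in medial ones. That sum came mainly from Slc10a4 and Aldh1a1, while Nr4a2, a transcription factor that defines these neurons, had means of 0.17 and 0.58 TPM and Ret means of 0.66 and 0.26 TPM. None of the serotonin or noradrenaline neuron genes on the lists is analysed here. Genes of excitatory neurons of neighbouring areas summed to at most 3.31 TPM in any library.

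Of the 6 neuroblast genes, all measured, 1 passed, beside 1.48% of all tested genes, and none did under median-ratio scaling or quantile normalization. The medial mean of log2(TPM + 1) was the higher in 6 of 6, beside 68.7% of all tested genes, and in 5 of 6 under those alternatives (median log2 fold change -0.91, or -0.80 and -0.69 under these). Their sum ran from 42.0 to 62.7 TPM medially and from 13.2 to 40.1 TPM laterally, without overlap. Sox11 was the largest part of that sum, with a mean of 31.6 TPM medially and 10.7 TPM laterally. Of the single genes only Sox11 had groups that did not overlap (1 of 6, beside 4.25% of all tested genes). It ran from 18.0 to 46.0 TPM medially and from 6.07 to 14.1 TPM laterally. The gene that passed was Sox11, a transcription factor of immature neurons (log2 fold change -1.47, limma adjusted p = 0.0332). The Sox11 call ended when lateral replicate 1 or 2, or medial replicate 2, 3, 4 or 5, was left out, with adjusted p of at most 0.0834. It also ended under median-ratio scaling (0.0614) and quantile normalization (0.0661). The same held without a mean-variance trend (0.0638) and without both lateral replicate 5 and medial replicate 2 (0.101). The part of these cells in the Ddc difference was not tested. The astrocyte list, 15 of 15 measured, summed to 1065 to 1462 TPM in lateral and 1236 to 1676 TPM in medial libraries. Of its genes 12 were lower in lateral, beside 68.7% of all tested genes (9 under median-ratio scaling). An unadjusted limma p under 0.05 was found for 6, beside 15.4% of all tested genes. The 1 that passed, beside 1.48% of all tested genes, was Ntsr2 (log2 fold change -0.90, limma adjusted p = 0.0492). Its call was lost in 17 of 21 alternatives (adjusted p up to 0.16), among them median-ratio scaling (0.091) and quantile normalization (0.0747). It was lost in 9 of 10 fits that each left out 1 library, all but that without lateral replicate 2 (adjusted p up to 0.113). The microglia list, 12 of 12 measured, summed to 505 to 777 TPM in lateral and 261 to 511 TPM in medial ones, with all 12 genes higher in lateral, also under each of the 3 scaling alternatives, against the median of all tested genes at -0.21. Of these, 11 had an unadjusted limma p under 0.05, beside 15.4% of all tested genes, and 3 passed, beside 1.48%. Those that passed were C1qa, Tmem119 and Ctss, whose calls were lost in 8, 8 and 7 of those 10 fits (adjusted p up to 0.103). Over all 21 alternatives the calls of C1qa, Tmem119 and Ctss were lost in 11, 13 and 12 (adjusted p up to 0.165). The oligodendrocyte list, 14 of 14 measured, summed to 357 to 1106 TPM in lateral and 151 to 554 TPM in medial libraries. Of its genes 12 were higher in lateral (13 under each scaling alternative), where 68.7% of all tested genes were lower. An unadjusted limma p under 0.05 was found for 5, beside 15.4% of all tested genes, and none passed. For Th, the GABAergic interneuron list (8 of 9 measured, 7 tested, none passing and 4 with an unadjusted limma p under 0.05, beside 15.4% of all tested genes) was set beside it, at 481 to 5635 TPM in lateral and 28.2 to 1697 TPM in medial ones. In lateral replicates 2, 3 and 4, where Th was high, that list summed to 481, 5635 and 1821 TPM, and in lateral replicate 1, where Th was listed at 0, to 2972 TPM. In lateral replicate 5, with Th at 1.24 TPM, it summed to 1369 TPM. In medial replicates 1 to 5, with Th at 0, 6.75, 0, 15.3 and 15.6 TPM, it summed to 36.6, 28.2, 68.3, 295 and 1697 TPM. These sums came mainly from Sst and Npy, with lateral means of 1146 and 1258 TPM and medial means of 191 and 200 TPM. The relation of this list to Th was not tested. The cholinergic list, 7 of 7 measured, summed to 7.68 to 238 TPM in lateral and 9.57 to 202 TPM in medial ones, with none passing.

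**Figure D4:**
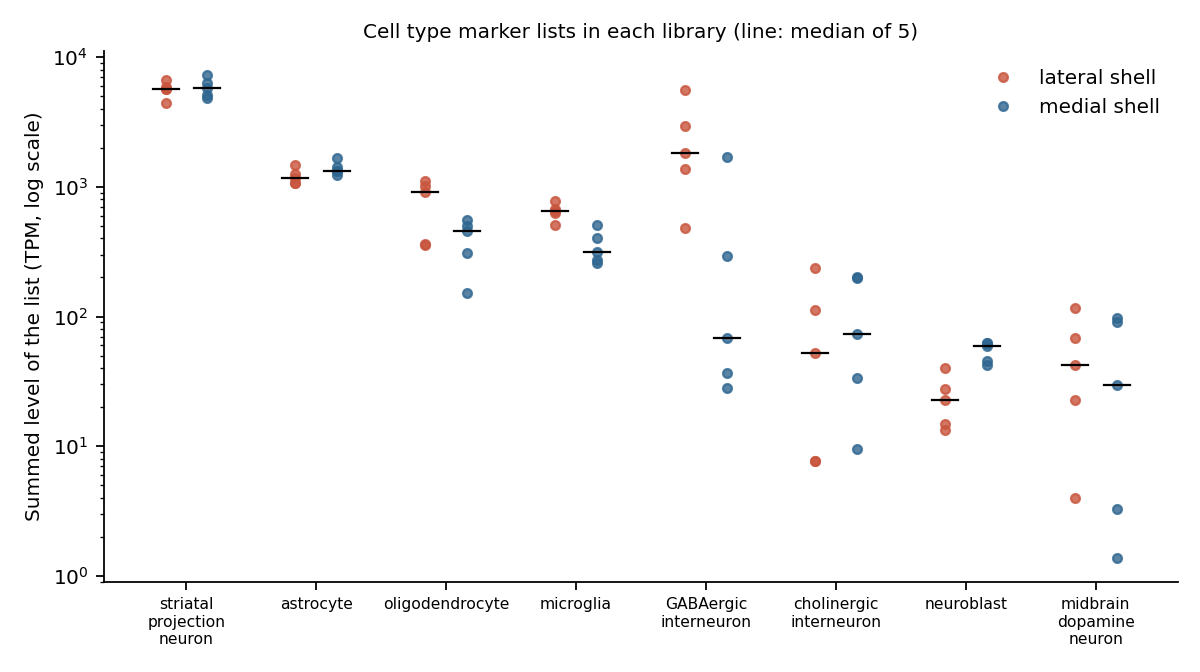
Summed level in TPM (vertical axis, log scale) of 8 cell type marker lists in each lateral and medial library, with a line at the median of 5. The neuroblast sums do not overlap, at 13.2 to 40.1 TPM in lateral against 42.0 to 62.7 TPM in medial libraries. Their largest part is Sox11, with means of 10.7 TPM in lateral and 31.6 TPM in medial. The projection neuron sums overlap, and the microglia sums do so narrowly, at 505 to 777 TPM in lateral against 261 to 511 TPM in medial. Of the single neuroblast genes, only Sox11 had groups that did not overlap.

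Across the 10 libraries, the genes whose log2(TPM + 1) followed each monoamine gene most closely were sought among up to 9138 tested genes that averaged 5 TPM or more. These correlations describe 10 libraries that share scaling and, for Ddc, the difference between the groups. Among those closest to Ddc was Rnf25, a ubiquitin ligase gene (Pearson r 0.96, Spearman rho 0.94), and 51 genes had an r above 0.9. Rnf25 did not pass between the regions (log2 fold change -0.95, limma adjusted p = 0.0669). For Th the closest were Prrg3 (0.91 and 0.90) and the clock gene Cry2 (0.89 and 0.87), for Slc18a2 Mcee (0.92 and 0.87) and Cd2bp2 (0.85 and 0.89). For Maoa they were Fcho2 (0.94 and 0.90) and Slc37a3 (0.92 and 0.67), and for Maob the closest was Terf2ip (0.92 and 0.90). No monoamine gene was among the 2 closest of another, but Slc18a2, which averaged 4.80 TPM, was not among the genes searched.

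**Figure D5:**
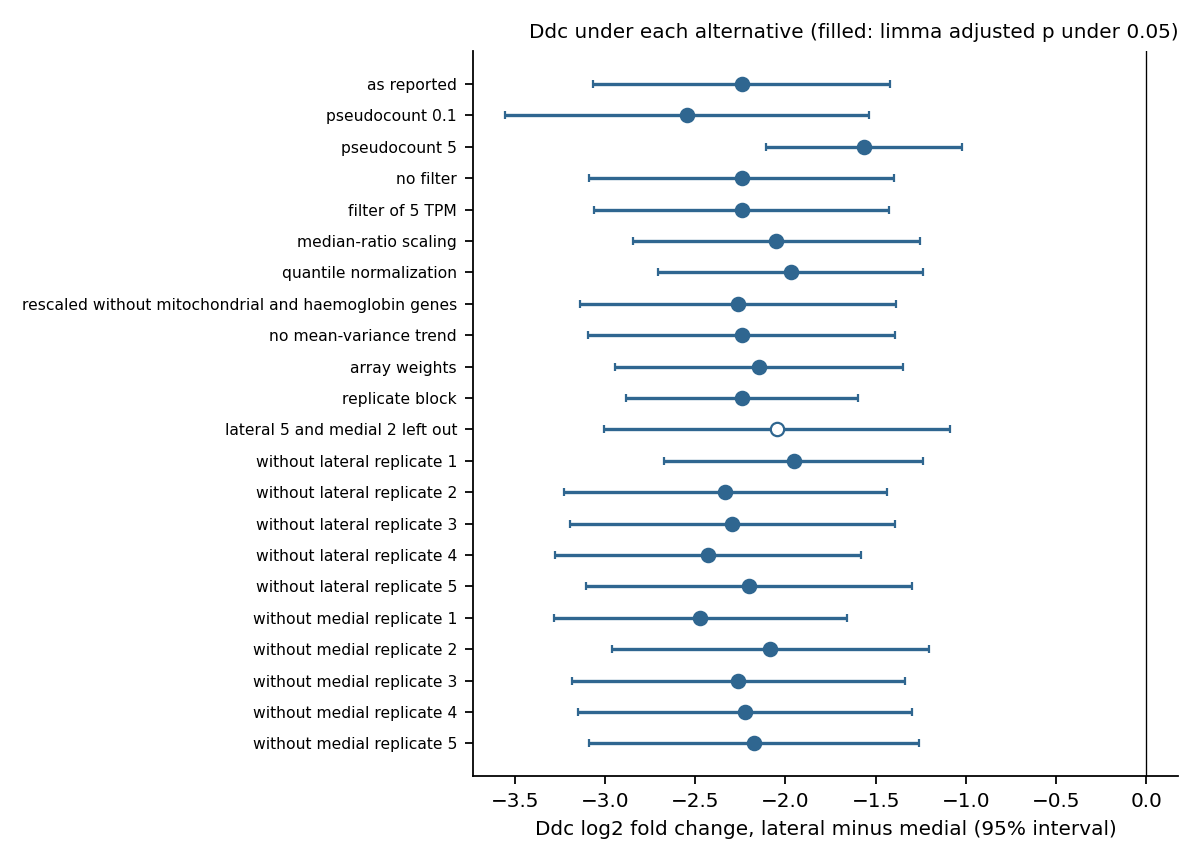
Ddc log2 fold change, lateral minus medial, with its 95% interval (horizontal axis) as reported and under 21 alternatives of pseudocount, filter, scaling, variance model, replicate block and libraries left out (vertical axis), filled where the limma adjusted p was under 0.05. All values lie between -2.55 and -1.57, and the open point is the fit without lateral replicate 5 and medial replicate 2.

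The Ddc difference kept its direction in all 21 alternatives and passed in 20 of them. Leaving out single libraries gave log2 fold changes from -2.47 to -1.95 and adjusted p from 0.00684 to 0.0452.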

How the data were processed

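The authors deposited 1 table of TPM values, transcript levels scaled by gene length and library total, with 1 column for each of the 10 libraries and each column summing to 1000000. Per the submitters' processing notes, fastp 0.20.0, HISAT2 2.1.0, StringTie 1.3.4, featureCounts 1.6.3 and GRCm38 (mm10) were used, with no roles stated. The annotation and the use of strand are not stated in the sources used here. TPM keeps no depth, so the depth of each library is unknown and no counting interval is given. Libraries listed 15402 to 17003 genes above 0, and 23.5% to 35.3% of a library's TPM fell on mitochondrially encoded genes. Zeros are called listed at 0, because they can be failed estimates.

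The regions were compared by limma 3.58.1 (R 4.3.3) on log2(TPM + 1), with a mean-variance trend, over genes of at least 1 TPM in at least 5 libraries, with Benjamini-Hochberg adjusted p under 0.05 over all tested genes as the threshold. The pseudocount of 1 understates changes of low genes. Ratios within libraries had exact two-sided permutation tests. The limma fit was run on simulated data with independent normal noise for each gene. That checks the code, and not how the model suits amplified low-input libraries. Coordinates came from GENCODE M21, and figures were drawn with matplotlib 3.10.9.

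Named are the 6 listed genes and, from each pathway list, those that passed and the 3 smallest p. From each cell type list those that passed are named or else, in part, its 2 highest means or its sums. For likeness the 2 highest Pearson r are named, leaving out predicted, unnamed and pseudogene symbols. Grb10, Nr4a2 and Ret fall outside this rule and were chosen after their values were seen. The genes and lists were chosen with earlier results of these data known. Alternatives changed the pseudocount, filter, scaling, variance model, sample weights, replicate block and the libraries included. Slc6a3 had a planned test that was not run. Some genes that the rule names are not reported here.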

Additional observations from a re-analysis of the deposited data

Results flagged for a closer look

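Among the 14 groups of 5 values examined (5 genes and 2 ratios in each region), 1 held a library far from the rest, where chance alone does so in about 5% of groups. The log2 ratio of Maoa to Maob in lateral replicate 4 was -1.53, and the nearest other lateral library was at -0.49, a gap of 0.765 of the group's whole range. In that library Maob was at 30.0 TPM and Maoa at 9.75 TPM, the highest Maob and the lowest Maoa of the lateral libraries.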

How the results depend on the processing

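Ddc passed in every alternative except the fit without lateral replicate 5 and medial replicate 2 (log2 fold change -2.04, adjusted p = 0.101), a fit of fewer libraries. Single libraries left out gave -2.47 to -1.95 for Ddc, 0.79 to 2.35 for Th, 0.056 to 0.46 for Maoa, -0.18 to 0.52 for Maob and -0.38 to 0.0234 for Slc18a2. None of the last 4 genes passed under any alternative (adjusted p from 0.37). Slc18a2 turned sign under median-ratio scaling (0.0057), quantile normalization (0.12) and without medial replicate 5 (0.0234), and Maob without medial replicate 1 (-0.18). The Maoa to Maob ratio turned when lateral replicate 5 (-0.014), medial replicate 2 (-0.21), both of these (-0.31) or medial replicate 5 (-0.059) was left out, within -0.21 to 0.46 over single libraries left out. The Th to Ddc ratio, 3.08 to 4.31 with single libraries left out, passed with a pseudocount of 5 (2.66, adjusted p = 0.0159). Slc29a4 turned with a pseudocount of 5 (-0.0057) and array weights (-0.0075), and Slc10a4 with array weights (-0.0497). With single libraries left out they ran from -0.23 to 0.25, in the 5 fits where Slc29a4 passed the filter, and from -0.63 to 1.05. The cause of these changes was not tested.

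Over all genes, 60 were higher in lateral and 171 in medial. The counts were 88 and 82 under median-ratio scaling, 86 and 100 under quantile normalization, 34 and 111 without a mean-variance trend, and 12 and 31 without lateral replicate 5 and medial replicate 2. With a pseudocount of 0.1 there were 107 in medial. Single libraries left out gave 23 to 69 and 56 to 188. With a replicate block there were 19 and 45, Ddc passed (adjusted p = 0.0218) and Slc18b1 did not (0.074). Same-numbered libraries did not deviate together (correlations of -0.05 to 0.04). Noise between libraries can hide a shared animal, so this does not settle whether the numbers pair the libraries.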
